A study of Mus musculus with 9 samples.

Results

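This account follows 10 genes that mark mouse embryonic stem cells: Pou5f1, Sall4, Nr5a2, Utf1, Fbxo15, Tcl1, Dppa2, Dppa3, Dppa4 and Dppa5a. They were taken by symbol from a table of RNA counts with 23366 named rows, and all 10 had a row. Each was compared between wild-type cells and cells whose label names a knockout of Sirt6, which encodes a nuclear sirtuin that deacetylates histones and which the series title ties to the pausing of RNA polymerase II near promoters. Both groups are embryonic stem cells of the 129 SvJae F1 strain, labelled passage 21, kept in medium with serum and leukaemia inhibitory factor (LIF), with 3 libraries of total RNA each. The labels say neither how Sirt6 was disrupted nor how many clones were used. Another 3 wild-type libraries, from cells deprived of glucose, are in the series, and were not analysed here. Whether the replicates came from separate cultures is not stated, so each p-value reflects the spread among these libraries alone, and that spread may be technical.

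Pou5f1 encodes OCT4, the POU-domain factor that, with SOX2 and NANOG, binds the enhancers of genes expressed in pluripotent cells. SALL4 (a zinc finger protein that recruits the NuRD deacetylase complex) and NR5A2 (a nuclear receptor that binds the Pou5f1 promoter) help maintain this network, and UTF1 is a chromatin protein whose gene is bound by OCT4 and SOX2. The Dppa genes ("developmental pluripotency associated") share a name rather than a structure. DPPA2 and DPPA4 are SAP-domain proteins that work as a heterodimer, DPPA3 (also called Stella or PGC7) limits DNA methylation in oocytes and early embryos, and DPPA5A is an RNA-binding protein with a KH domain. FBXO15 is an F-box protein long used as a reporter of the pluripotent state, and TCL1 is a coactivator of AKT kinases.

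Total counts per library ran from 20107037 to 29267115. Counts of Sirt6 were 348, 341 and 342 in wild type against 12, 6 and 6 in the knockout, which follows the labels. Stem cell identity was checked with Sox2, Nanog, Zfp42, Fgf4, Tdgf1 and Lin28a. Their summed level was 2843 to 3098 CPM (counts scaled to library size, with factors from the trimmed mean of M values) in wild type and 3344 to 3589 CPM in the knockout, and none was at 0. Of these 6, Sox2 and Tdgf1 were higher in the knockout, Nanog and Lin28a were lower (Lin28a from 327 ± 5.60 to 202 ± 19.7 CPM, adjusted p = 0.000185) and 2 were not called. The largest difference in level among them was that of Tdgf1, from 793 to 1468 CPM. The groups also differed in sex chromosome transcripts, which were looked at after their values were known: Xist fell from 38.2 ± 6.23 to 4.06 ± 0.662 CPM (SD, n = 3) and the Y-linked Ddx3y rose from 7.74 ± 0.791 to 91.5 ± 9.55 CPM (edgeR adjusted p = 1.53e-07 and 3.20e-08). Kdm5d, also Y-linked, had 0 counts in each wild-type library and 94, 65 and 32 in the knockout libraries. Uty and Eif2s3y, of the same chromosome, rose from 7.31 to 38.1 CPM and from 24.8 to 91.1 CPM. The knockout and any other difference between the cell lines cannot be told apart here.

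The members did not move as a block. Of the 10, all of which passed the filter on low counts, 6 were lower in the knockout (Sall4, Nr5a2, Tcl1, Utf1, Pou5f1 and Dppa2), 3 were higher (Dppa3, Dppa5a and Fbxo15) and 1 (Dppa4) did not pass an adjusted p of 0.05 in edgeR's quasi-likelihood test. The background is high: 55.7% of 14988 tested genes were called, 27.9% higher and 27.8% lower. The median log2 fold change was -0.46 over the members and 0.01 over all tested genes. The groups did not overlap in 9 members, and in 63.2% of all tested genes; both held, a call and no overlap, for these 9 members and for 54.5% of tested genes. Only Dppa3 reached a log2 fold change of 1 in size together with the adjusted p, as 21.6% of tested genes did. The median size of the change was 0.65 on the log2 scale in the members, against 0.44 over all tested genes and 0.80 over called genes. By wild-type CPM, Dppa3 exceeded 28.6% of tested genes and every other member at least 78.3%.

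**Figure D1:**
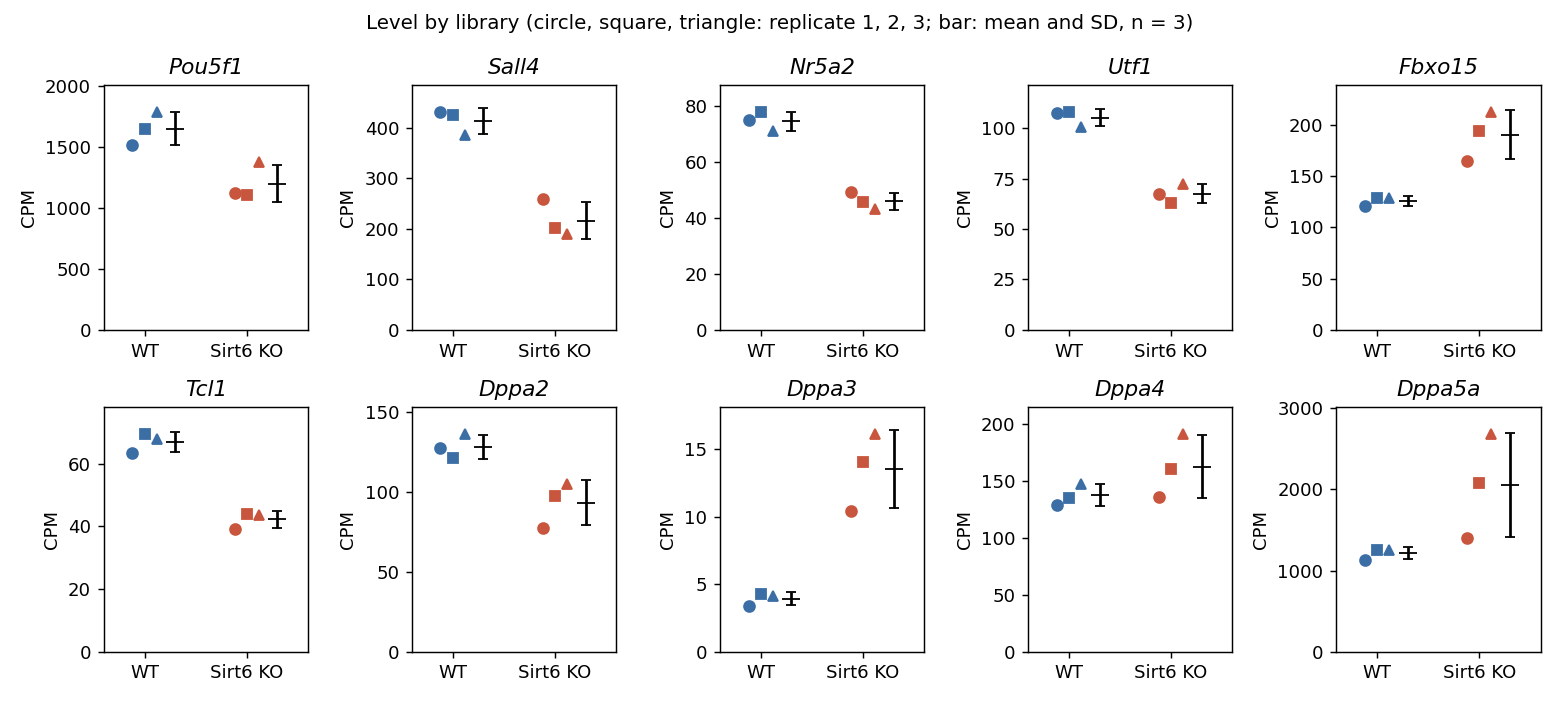
Level of each member in CPM (vertical axis, from 0) in the 3 wild-type (blue) and 3 knockout (red) libraries, with circles, squares and triangles for replicates 1, 2 and 3 and bars for the mean and SD. The groups overlap for Dppa4 alone among the 10 genes, and Dppa5a spreads from 1403 to 2683 CPM within the knockout.

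**Figure D2:**
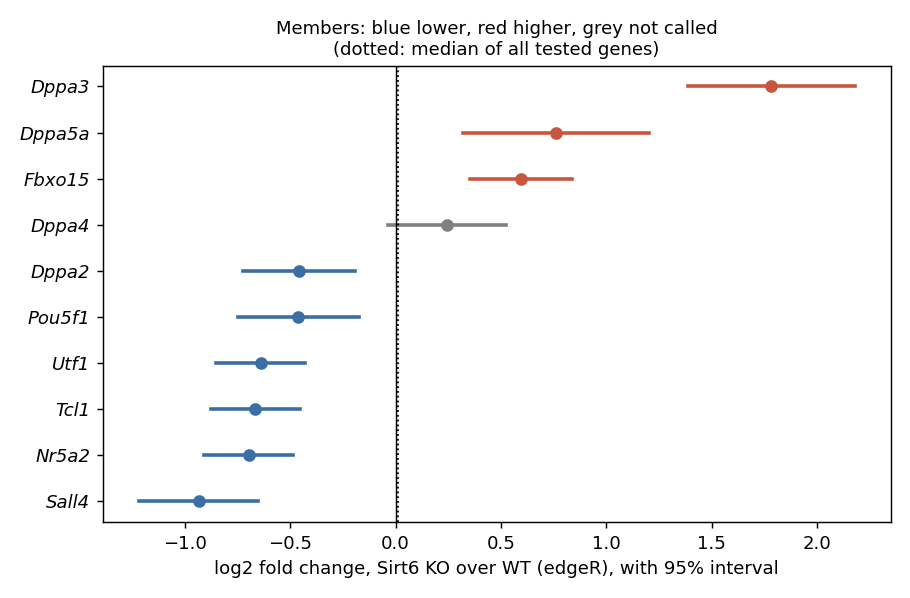
Log2 fold change of knockout over wild type (horizontal axis) for each member, with its 95% interval from the edgeR fit; the dotted line is the median of all tested genes. Values run from -0.93 for Sall4 to 1.78 for Dppa3, and the interval of Dppa4 crosses 0.

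RefSeq promoter entries (GRCm38.p6) matched 4 of the 10 members: Pou5f1, Nr5a2, Utf1 and Tcl1. Sall4, Fbxo15, Dppa2, Dppa3, Dppa4 and Dppa5a are named only. All 4 matched genes were lower in the knockout, and sequence upstream of the annotated start is shown for the 3 that hold a GC box, Pou5f1, Utf1 and Tcl1 (log2 fold changes of -0.46, -0.64 and -0.66). Nr5a2, with no GC box in its entries, was at -0.70. Capitals mark the GC box GGGCGG, bound by SP1-type factors, and the hexamer AGGTCA, the core of nuclear receptor sites, each on either strand (CCGCCC is the GC box read from the other strand). The windows are chr17:35505782-35506017 (plus strand) for Pou5f1, chr7:139943606-139943788 (plus strand) for Utf1 and chr12:105222794-105222987 (minus strand) for Tcl1, and each is written 5′ to 3′ on the strand of its gene.
Pou5f1: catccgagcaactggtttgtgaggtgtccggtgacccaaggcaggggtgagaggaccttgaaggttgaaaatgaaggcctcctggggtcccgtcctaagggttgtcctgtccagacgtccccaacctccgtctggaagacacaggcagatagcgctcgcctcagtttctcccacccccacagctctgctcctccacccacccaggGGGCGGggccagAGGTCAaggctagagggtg
Utf1: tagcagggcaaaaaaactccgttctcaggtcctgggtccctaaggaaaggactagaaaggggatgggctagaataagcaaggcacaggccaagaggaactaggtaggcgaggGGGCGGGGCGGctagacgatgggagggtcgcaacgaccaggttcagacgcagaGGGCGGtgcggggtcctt
Tcl1: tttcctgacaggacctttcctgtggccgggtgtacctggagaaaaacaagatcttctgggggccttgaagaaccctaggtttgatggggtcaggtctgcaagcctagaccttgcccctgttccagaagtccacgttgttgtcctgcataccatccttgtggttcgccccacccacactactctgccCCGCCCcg
In the full entries of 300 bases, the GC box occurred 1 time for Pou5f1, 4 times for Utf1 with some copies overlapping, and 2 times for Tcl1, and in neither entry for Nr5a2. Of 32841 mouse promoter entries of that length, 35.7% held at least 1 GC box. AGGTCA occurred once in the upstream entry for Pou5f1, beside its GC box, and once in 1 of the 2 entries for Nr5a2, against 16.3% of all entries. The octamer motif ATGCAAAT, the consensus of POU factors, occurred in none of these 6 entries and in 1.74% of all entries. The upstream entries held 11 CpG dinucleotides for Pou5f1, 17 for Utf1 and 11 for Tcl1, against a median of 7 over all entries (quartiles 3 and 20). The other Pou5f1 entry held 6, and the entries for Nr5a2 held 2 and 7. These matches are descriptions of letters, not of bound sites.

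Pou5f1, the most abundant transcription factor gene of the set, was at 1519, 1649 and 1785 CPM in wild type and at 1119, 1104 and 1374 CPM in the knockout (here and below, replicates 1, 2 and 3 in that order). Every knockout library lay below every wild-type library, with the narrowest gap between knockout replicate 3 and wild-type replicate 1. The change was 1.38-fold (log2 fold change -0.46 ± 0.13 (SE), adjusted p = 0.0108, edgeR). Without wild-type replicate 3 or knockout replicate 2 the adjusted p was 0.0535 and 0.0646, at -0.41 and -0.40. Per kilobase of its longest annotated transcript, Pou5f1 stood at 1212 CPM per kb in wild type and 880 CPM per kb in the knockout, above 99.8% and 99.5% of tested genes. In a bulk sample, fewer cells with a transcript and less of it per cell cannot be told apart.

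Sall4 fell furthest of the members. It was at 431, 426 and 385 CPM in wild type and at 259, 201 and 190 CPM in the knockout, with a wide gap between the groups. The change was 1.91-fold (log2 fold change -0.93 ± 0.13, adjusted p = 0.000118). Nr5a2 was at 74.9, 77.8 and 71.0 CPM in wild type and at 49.3, 45.6 and 43.1 CPM in the knockout. The fall was 1.62-fold (log2 fold change -0.70 ± 0.10, adjusted p = 0.000117), and its knockout libraries lay close together. Utf1 was at 107, 108 and 100.4 CPM in wild type and at 67.4, 62.8 and 72.3 CPM in the knockout, 1.56-fold lower (log2 fold change -0.64 ± 0.09, adjusted p = 0.000195). Of the 6 genes that fell, Utf1, Nr5a2 and Tcl1 varied least among knockout libraries, with a coefficient of variation of 7.02%, 6.81% and 6.61%.

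Tcl1 and Fbxo15, whose products do not bind DNA, went opposite ways. Tcl1 was at 63.6, 69.6 and 67.8 CPM in wild type and at 39.1, 44.1 and 43.7 CPM in the knockout, 1.59-fold lower (log2 fold change -0.66 ± 0.10, adjusted p = 0.000162). Fbxo15 was at 120.5, 128.5 and 128.8 CPM in wild type and at 164.6, 194.3 and 212.4 CPM in the knockout. Here every knockout library was above every wild-type library, 1.51-fold on average (log2 fold change 0.60 ± 0.11, adjusted p = 0.000863). The rise of Fbxo15 shrank to 0.39 (adjusted p = 0.000143) in a fit that took out, library by library, the dependence on transcript length and GC content.

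The 4 Dppa genes did not share a direction. Dppa3 was scarce in wild type, with 90, 102 and 106 counts or 3.35, 4.27 and 4.09 CPM, and had 331, 342 and 322 counts or 10.4, 14.0 and 16.1 CPM in the knockout. The lowest knockout library was above the highest wild-type library by a wide margin, and the rise was 3.44-fold (log2 fold change 1.78 ± 0.18, adjusted p = 1.29e-05). Its size exceeded that of 91.2% of tested genes. Dppa3 nevertheless stayed modest in level, at 4.69 CPM per kb in wild type and 16.2 CPM per kb in the knockout, above 46.2% and 74.2% of tested genes. Dppa5a, by contrast, was the member with the highest level per length in both groups, at 1958 CPM per kb in wild type and 3318 CPM per kb in the knockout. It was at 1126, 1252 and 1257 CPM in wild type and at 1403, 2076 and 2683 CPM in the knockout. The groups did not overlap, but the knockout libraries differed among themselves by more than they did for any other member (coefficient of variation 31.2% against 6.12% in wild type). The rise was 1.70-fold (log2 fold change 0.76 ± 0.20, adjusted p = 0.00738), and 0.51 on the log2 scale without knockout replicate 3 (adjusted p = 0.0204).

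Dppa2 and Dppa4, neighbours in the genome whose proteins form a pair, diverged. Dppa2 was at 127, 121 and 136 CPM in wild type and at 77.5, 97.4 and 105.0 CPM in the knockout, all below wild type (1.38-fold, log2 fold change -0.46 ± 0.12, adjusted p = 0.00736). Dppa4 was at 129, 135 and 148 CPM in wild type and at 136, 161 and 191 CPM in the knockout. Knockout replicate 1 lay inside the wild-type range for Dppa4, and the gene was not called (log2 fold change 0.24, 95% interval -0.04 to 0.52, adjusted p = 0.125). It did pass without knockout replicate 1 (0.36, adjusted p = 0.00383) and with total counts as the scaling (0.36, adjusted p = 0.0226), which moves the median of all tested genes to 0.13. Without knockout replicate 3 it was at 0.09 (adjusted p = 0.477). The ratio of their counts within a library does not depend on scaling. For each count of Dppa2 there were 1.01, 1.12 and 1.08 counts of Dppa4 in wild type, and 1.75, 1.65 and 1.82 in the knockout. On the log2 scale the ratio went from 0.10 ± 0.07 to 0.80 ± 0.07 (SD, n = 3), a difference of 0.70. The knockout ratios were all above the wild-type ratios, and the two-sided exact permutation p was 0.1, the smallest that 3 against 3 allows.

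**Figure D3:**
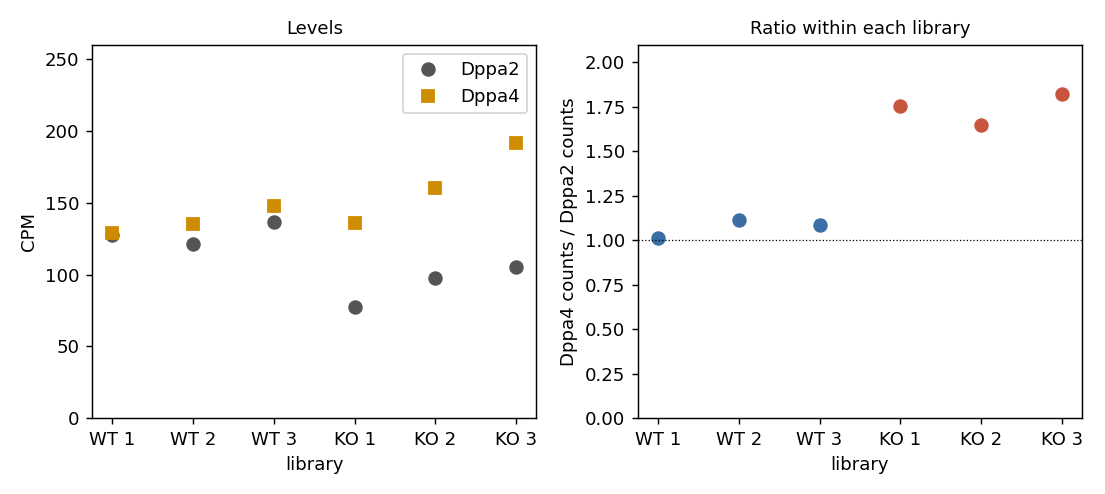
Left, levels of Dppa2 (grey circles) and Dppa4 (yellow squares) in CPM in each of the 6 libraries; right, counts of Dppa4 divided by counts of Dppa2 in the same library, wild type in blue and knockout in red, with a dotted line at 1. The ratio is 1.01 to 1.12 in wild type and 1.65 to 1.82 in the knockout.

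The knockout libraries differed from one another in ways that ran with transcript length across all genes, and among the members at the extremes of length only. Dppa5a (0.619 kb) and Dppa3 (0.833 kb), the shortest, were higher in knockout replicate 3 than in replicate 1 by 0.94 and 0.63 on the log2 scale. Sall4 (5.07 kb) and Nr5a2 (4.73 kb), the longest, differed between the same libraries by -0.45 and -0.20, and the other 6 members did not follow length. Utf1 (1.23 kb), Pou5f1 (1.36 kb) and Tcl1 (1.40 kb) differed by 0.10, 0.30 and 0.16, while Dppa4 (1.48 kb), Dppa2 (2.45 kb) and Fbxo15 (2.53 kb) differed by 0.49, 0.44 and 0.37. Over 14830 tested genes with a known length, the deviation from the group mean was correlated with log2 length (genes are not independent replicates). The correlation was 0.43 in knockout replicate 1, 0.03 in replicate 2 and -0.47 in replicate 3. Wild-type replicates 1, 2 and 3 ran in the same order with smaller values, at 0.19, -0.02 and -0.16. With GC content the deviation correlated at 0.26, -0.365 and -0.02 in knockout replicates 1, 2 and 3, and between -0.04 and 0.07 in wild type. The fold change itself correlated with log2 length at -0.05 across the same genes. With that dependence on length and GC content taken out, an alternative chosen after the data were seen, Dppa5a was at 0.68, Dppa3 at 1.61, Dppa2 at -0.67, Sall4 at -0.81 and Nr5a2 at -0.76. All 9 calls stood in that fit, and Dppa4 remained outside the threshold (0.14, adjusted p = 0.0511).

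**Figure D4:**
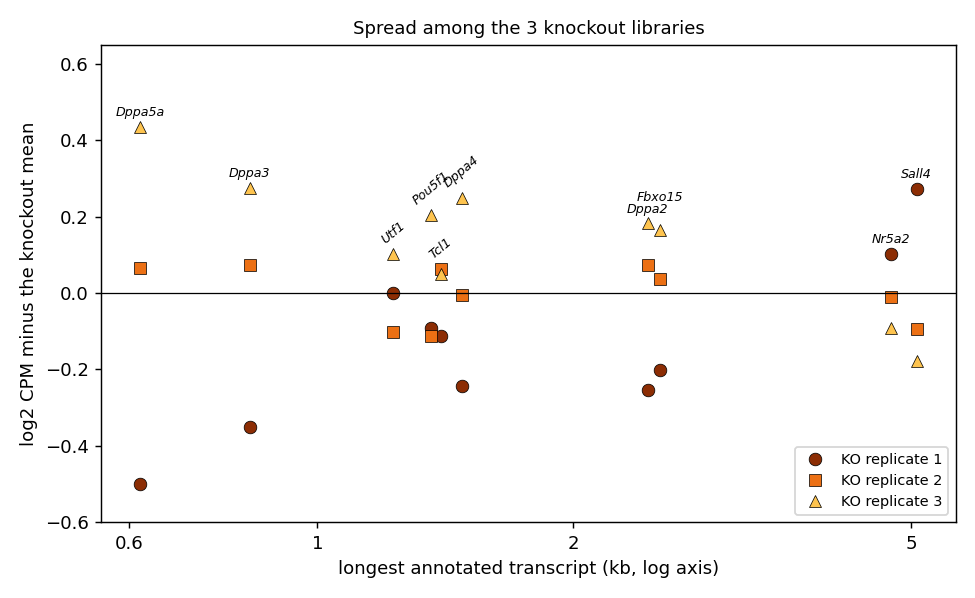
Log2 CPM of each member in each knockout library minus the mean of the 3 knockout libraries (vertical axis), against the length of its longest annotated transcript in kb (horizontal log axis); symbols are replicates. Dppa5a and Dppa3, the shortest, are highest in replicate 3 and lowest in replicate 1, the order is the opposite for Sall4 and Nr5a2, and members of middle length do not follow length.

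Several members have near-copies elsewhere in the genome, so some of their reads could map to more than 1 place, and no source used here gives the rule for such reads or for strand. In the GENCODE M21 transcripts, the share of a member's 50-base stretches that also occur in another gene was 38.6% for Dppa5a, 31.3% for Dppa4, 29.1% for Dppa2, 16.5% for Dppa3 and 10.1% for Pou5f1. It was 7.64% for Sall4, 0.051% for Nr5a2 and 0 for Utf1, Fbxo15 and Tcl1. For Pou5f1 and Sall4 the shared stretches include overlapping transcripts of the opposite strand, Gm19553 and Gm14261. Values of the Dppa genes are therefore less certain than their counts alone would allow.

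Genes next to the members were read from the same annotation. Dppa3 sits between Gdf3 and Nanog, both themselves expressed in stem cells, and these neighbours moved against it: Gdf3, a TGF-beta family ligand, fell from 114 ± 5.08 to 47.7 ± 6.46 CPM (adjusted p = 5.86e-06), and Nanog from 365 ± 10.1 to 292 ± 13.2 CPM (adjusted p = 0.0139). The call for Nanog was narrow. It was lost with total counts as the scaling (log2 fold change -0.19, adjusted p = 0.150), without wild-type replicates 1, 2 or 3 (0.0538, 0.0605 and 0.0623) and without knockout replicate 2 (0.0584). On the far side of Dppa2 lies Morc1, a germline chromatin gene, which rose by 0.52 ± 0.11 on the log2 scale, and on the far side of Dppa4 lies Pvrl3, a nectin gene, at 0.34 (adjusted p = 0.00986, and 0.0791 without wild-type replicate 2). Dppa2 was thus lower between 2 neighbours that were not. Both neighbours of Sall4 fell with it (Atp9a by 0.76 and Zfp64 by 0.44), as did those of Nr5a2 (Gm16880 at -1.03 and Nek7 at -0.52). The neighbours of Utf1 (Kndc1 and 6430531B16Rik) were not called, at 0.27 and -0.41. Kndc1 was called in 3 of 15 alternatives, among them the fit without knockout replicate 3 (0.34, adjusted p = 0.0362). Beside Pou5f1, H2-Q10 rose by 2.19 from 0.636 ± 0.292 CPM, and Tcf19 was at -0.12 and not called. Beside Tcl1, 2810011L19Rik rose by 0.75 at a low level and Glrx5 was at -0.07 and not called. Timm21 fell beside Fbxo15 (-0.52, adjusted p = 0.0160, and 0.0549 without wild-type replicate 3), while Cyb5 on the other side was at 0.41 (adjusted p = 0.0717) and was called in 6 of 15 alternatives, with 0.63 and an adjusted p of 5.37e-05 without knockout replicate 1. Next to Dppa5a, neither Gsta4 (-0.09) nor Ooep (-0.39, adjusted p = 0.0655) was called. Ooep was called in 4 of 15 alternatives, at -0.58 (adjusted p = 0.00863) without knockout replicate 3.

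The partners of OCT4 leaned lower. Of 10 listed factors, 7 fell, 1 rose and 2 were not called, with a median log2 fold change of -0.68. Nr0b1 (a nuclear receptor-like repressor that binds OCT4) fell from 152 ± 2.58 to 68.5 ± 5.75 CPM, Tcf7l1 (the WNT-pathway repressor TCF3) from 16.6 ± 1.42 to 5.78 ± 0.804 CPM and Prdm14 from 37.1 ± 0.977 to 17.1 ± 1.46 CPM. Sox2, which pairs with OCT4 on DNA, rose instead, from 324 ± 23.0 to 428 ± 29.2 CPM (log2 fold change 0.40, adjusted p = 0.00700, and 0.0541 without wild-type replicate 2). Esrrb (-0.12) and Zfp42 (-0.04) did not pass. Of 7 genes with enhancers bound by OCT4 and SOX2, 3 rose and 2 fell, with a median of 0.05. Upp1, a uridine phosphorylase gene, rose from 203 ± 12.5 to 427 ± 63.8 CPM and Tdgf1, the NODAL coreceptor gene, from 793 ± 46.8 to 1468 ± 104 CPM, while Fgf4 was at 0.05 and Lefty1 at -0.01. The falls in this list, Nanog and Spp1 (the osteopontin gene, -0.41, adjusted p = 0.0234), were not firm: 0 genes were called lower without wild-type replicate 1, 2 or 3, and 1 without knockout replicate 2.

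Other genes catalogued as specific to embryonic stem cells also moved in both directions. Of 8 such transcripts, Dppa1 was too low to test (0 to 1 counts per library), 4 fell, 2 rose and 1 was not called. Dnmt3l, a cofactor of de novo DNA methylation, rose from 72.7 ± 1.80 to 168 ± 8.16 CPM and Sox15 from 9.77 ± 0.489 to 18.6 ± 1.76 CPM. Gdf3 fell as given above, and the count of falls dropped from 4 to 2 without wild-type replicate 1, 2 or 3 or without knockout replicate 2.

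Relatives of the members were examined family by family. Among the 3 other Spalt genes, Sall1 fell from 227 ± 8.09 to 73.9 ± 11.6 CPM and Sall3 from 29.4 ± 2.70 to 2.23 ± 0.655 CPM, both by more than Sall4, and Sall2 was not called (0.20). The subunits of NuRD, the complex that SALL4 recruits, fell in 11 of 13 cases, with a median of -0.65. Chd3, a remodelling ATPase, fell from 32.5 ± 2.05 to 8.52 ± 1.66 CPM, Mta2 from 169 ± 3.92 to 66.6 ± 8.59 CPM and Gatad2b from 27.5 ± 1.35 to 13.7 ± 1.80 CPM, whereas the deacetylase gene Hdac2 rose by 0.56. Of 9 other POU factor genes tested, 4 fell and 1 rose. The neural factors Pou4f2 (from 29.9 ± 0.813 to 2.52 ± 0.418 CPM) and Pou4f1 fell by 3.57 and 1.20, the widely expressed Pou2f1 fell by 1.01, and Pou3f1, also called OCT6, rose by 0.85. Of the nuclear receptor genes with sites in the Pou5f1 promoter, 5 were tested, 3 fell and 1 rose. Nr6a1, which encodes the repressor GCNF, rose from 58.0 ± 4.06 to 93.2 ± 18.2 CPM, and the retinoid receptor genes Rxra and Rara fell by 0.72 and 0.62.

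Partners of FBXO15 and TCL1 were examined next. None of 4 core genes of the SCF ubiquitin ligase, in which F-box proteins act, passed in edgeR, in DESeq2 or in limma-voom. In edgeR, 0 of 4 had an unadjusted p under 0.05. Without knockout replicate 1, 3 of the 4 were called higher. With total counts as the scaling 1 was called higher, as with the replicate block. With the dependence on length and GC content taken out, 1 was called lower. The Tcl1b genes beside Tcl1 were too low to test. Of the AKT kinase genes, whose products TCL1 binds, Akt2 fell from 73.7 ± 1.47 to 53.5 ± 7.04 CPM (log2 fold change -0.46, adjusted p = 0.00410) and Akt1 was at -0.11 and not called.

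Genes that act with the Dppa proteins were examined last. DPPA2 and DPPA4 are needed for the 2-cell-like state of stem cell cultures, and 6 of 7 tested genes of that state rose, with 1 lower, while Dppa2 was lower and Dppa4 was not called. Zscan4a went from 1, 1 and 3 counts in wild type to 172, 123 and 105 in the knockout, Zscan4c from 5, 1 and 5 to 195, 141 and 106, and Zscan4f from 1, 4 and 5 to 162, 106 and 92. These genes share near-identical sequence, so reads may be split among them. Zfp352 went the other way, from 3.39 ± 0.484 to 0.810 ± 0.0995 CPM. DPPA3 acts on the DNA methylation machinery by displacing UHRF1, and all 8 genes listed for it were called, 3 higher and 5 lower (median -0.48). The genes of de novo methylation rose, Dnmt3a from 83.9 ± 3.29 to 179 ± 18.0 CPM, Dnmt3b by 0.50 and Dnmt3l as above. Maintenance genes fell, Uhrf1 by 0.58 and Dnmt1 by 0.37, and so did the demethylating dioxygenase genes Tet1, Tet2 and Tet3, Tet3 from 21.7 ± 1.54 to 7.85 ± 1.80 CPM. Of a list of KH-domain relatives of DPPA5A and genes grouped with those relatives, 3 were tested. Khdc3 (-0.26) and Tle6 (-0.56) were called lower, while Dppa5a was higher. Khdc3 lost its call in 7 of 15 alternatives and Tle6 in 4 of 15. Both calls ended in the fits without wild-type replicate 1, wild-type replicate 2 and knockout replicate 2 (adjusted p = 0.0767, 0.108 and 0.133 for Khdc3 and 0.0609, 0.0665 and 0.0739 for Tle6), and Khdc3 was also lost without wild-type replicate 3 (0.149).

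**Figure D5:**
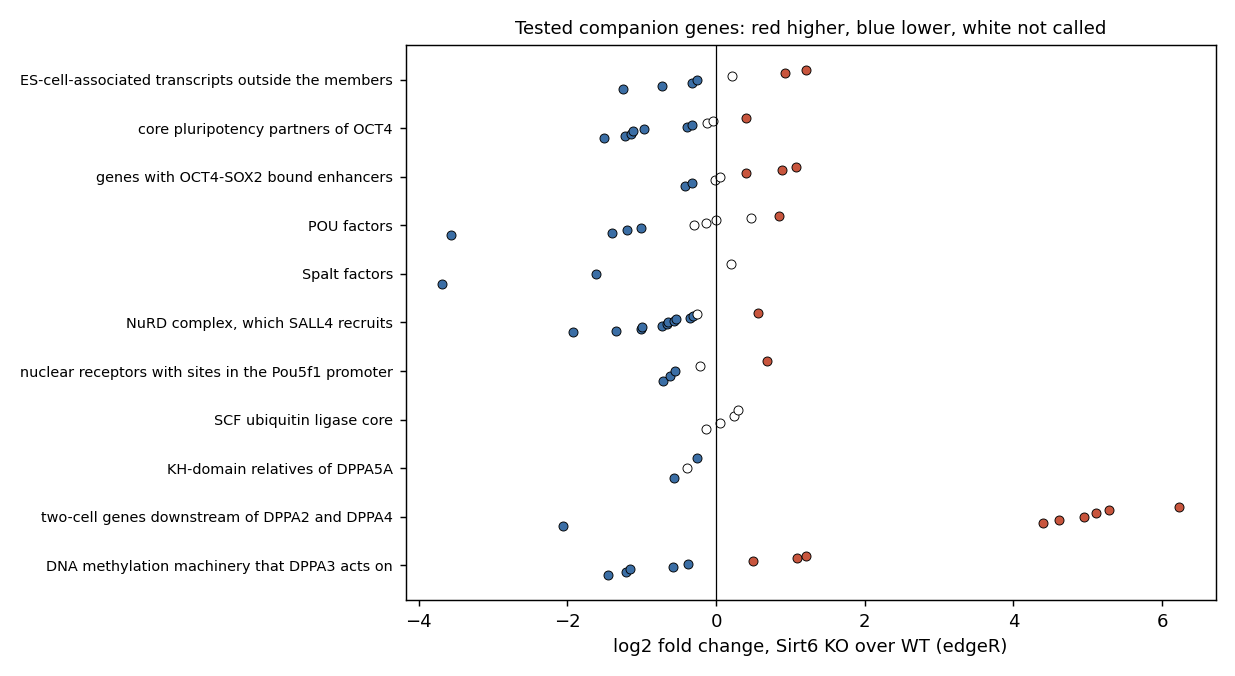
Log2 fold change of knockout over wild type (horizontal axis) for each tested gene of 11 lists of partners and relatives (1 list per line); red points were called higher, blue lower, and white were not called. NuRD subunits lie mostly below 0, and 6 of the 7 tested genes downstream of DPPA2 and DPPA4 lie above 4.

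Markers of other cell types moved with these changes, and their part in the results was not tested. Of 8 primed epiblast markers 7 rose and 1 fell. Their summed level went from 163 to 165 CPM in wild type to 297 to 363 CPM in the knockout. Dnmt3b made up most of it, at 138 CPM in wild type and 196 CPM in the knockout. All 7 tested primitive endoderm markers of 8 fell, from a sum of 47.6 to 49.2 CPM to 5.31 to 8.22 CPM. Of 8 trophectoderm markers, 5 of them tested, 4 rose and 0 fell, from a sum of 46.9 to 49.0 CPM to 105 to 113 CPM. Most of the sum was Krt8 (21.2 to 39.5 CPM), Krt18 (5.43 to 26.5 CPM) and Tfap2c (18.3 to 39.7 CPM). Eomes was not called (log2 fold change -0.32), and Cdx2, Elf5 and Hand1 were too low to test. The sum of 8 fibroblast markers rose from 4.31 to 5.06 CPM to 32.1 to 40.1 CPM, with 6 higher and 0 lower. Tagln made up most of the knockout sum, going from 2.21 to 21.7 CPM. Col3a1 and Postn were too low to test, and Postn was at 0 in wild type. Neuroectoderm markers (3 higher and 2 lower of 6) went from 94.6 to 98.7 CPM to 149 to 164 CPM, with Neurog1 at 0 in wild type. That sum was mostly Tubb3, which rose from 59.3 to 126 CPM. The 2 lower markers were Pax6, from 6.55 to 0.914 CPM, and Sox1, from 16.2 to 4.36 CPM. The 6 mesoderm markers (1 higher and 1 lower) summed to 6.11 to 6.22 CPM and 2.21 to 2.60 CPM, with Hand2 at 0 in both groups. The lower marker was Tal1, from 4.63 to 0.331 CPM, and the higher was Kdr, from 0.290 to 0.921 CPM.

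For 4 members, the genes whose pattern over the 6 libraries was closest were sought among 10455 tested genes, leaving out those whose mean was under 5 CPM, by the distance between centred log2 CPM values. Closest to Pou5f1 were Kxd1 (distance 0.0756) and Dhps (0.118), with a row whose symbol had turned into a date between them. Closest to Dppa3 were Fabp3 (0.190), Pttg1 (0.215) and Crabp1 (0.265), with log2 fold changes of 1.74, 1.64 and 1.86. Zmat2, Drg1 and Zfp511 lay closest to Dppa4 (0.0516 to 0.0651); like it they were not called, and like it they were called without knockout replicate 1 (adjusted p = 0.00363, 0.00399 and 0.0184). For Utf1 these were Ercc4, Pgd and Yars2 (0.0901 to 0.109). Dppa3 had the most distant nearest gene of the 4. All these genes were picked for closeness over the same 6 libraries. Their likeness to the members in fold change and in calls follows from that choice and is not a separate result.

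In the authors' deposited table of the same comparison, made from these libraries, 9 members passed an adjusted p of 0.05 with the signs given above. The authors' deposited table puts Dppa3 at a log2 fold change of 1.74, Dppa5a at 0.75, Fbxo15 at 0.59 and Sall4 at -0.92, and Dppa4 at 0.25 with an adjusted p of 0.148.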

How the data were processed

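The deposited count table holds whole-number counts per gene symbol, not normalized. DESeq2, HTSeq 0.6.1 and TopHat2 2.0.10, and mm9 as the build, come from the submitters' processing notes, which give them no role. Annotation, strand setting and filters were not given in the sources used here. Per the file headers, the authors' deposited comparison holds log2 fold changes and their standard errors, the base mean as a signal, the Wald statistic as a score, and raw and adjusted p-value columns. Counts were tested with edgeR 4.0.16 in R 4.3.3 (glmQLFit, glmQLFTest, two-sided, TMM, filterByExpr), which left 14988 genes, with Benjamini-Hochberg adjustment over all of them. Standard errors are the fold change divided by the square root of F. Alternatives used DESeq2 1.42.0 and limma 3.58.1, other scalings and filters, the replicate block and each replicate left out. Transcript lengths, neighbours and near-copies came from GENCODE M21 (GRCm38, not the authors' build), matched for 21706 symbols and 1272 older symbols. Members and lists were chosen with earlier results of these data known. Named genes were the members, Sirt6, up to 3 called genes per list with the smallest adjusted p, the nearest tested neighbours and the closest patterns; other genes were picked with their values in view. Libraries of one group differed beyond sampling noise (lowest chi-square per degree of freedom 3.73). On simulated counts for this comparison with 14412 genes tested, 50 genes were changed at each of the folds 1.5, 2, 4 and 8. Of genes changed 1.5-fold and 2-fold, 66% and 94% were recovered, and 5.26% of calls were unchanged genes. The simulation changed far fewer genes than were called in the data and held no trend with length or GC content. These shares may therefore not carry over to the data. One gene of a companion list is not reported here.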

Additional observations from a re-analysis of the deposited data

How the results depend on the processing

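The members' directions held in all 15 alternative fits, and no call among Sall4, Nr5a2, Utf1, Tcl1, Dppa2, Dppa3, Fbxo15 and Dppa5a was lost; Pou5f1 and Dppa4 changed sides as given above. With a log2 fold change of at least 1 required, 1889 genes were higher and 1349 lower, and 1 member was higher and 0 lower. Leaving out 1 replicate at a time gave 3580 to 4961 higher and 3352 to 4915 lower genes, 3 to 4 members higher and 5 to 6 lower, and a ratio of Dppa4 to Dppa2 that differed by 0.662 to 0.741 (log2). Total counts as the scaling made 5114 genes higher and 3101 lower, so that 62.3% of calls were higher against 50.1%. Among neighbours that were not called, Tcf19, Glrx5 and Gsta4 had negative log2 fold changes that turned positive in some alternatives. With total counts these log2 fold changes were 5.35e-06 for Tcf19, 0.0480 for Glrx5 and 0.0239 for Gsta4. Glrx5 was at 0.0287 without wild-type replicate 3. Without knockout replicate 1, Glrx5 was at 0.0254 and Gsta4 at 0.147. Over the fits without 1 replicate the lowest log2 fold changes were -0.196 for Glrx5 and -0.338 for Gsta4. All 3 genes stayed uncalled in all 15 alternatives. The replicate block called 4670 higher and 4682 lower genes with the same 3 and 6 members. Deviations of same-numbered libraries correlated at 0.21, -0.03 and 0.20, and not every library correlated best with its own number. Wild-type replicate 3 with knockout replicate 1 gave -0.22, and wild-type replicate 1 with knockout replicate 3 gave -0.21. The main fit did not pair the samples by number. Whether the numbers mark something shared by both groups was not tested. Of 408 counts over the companion lists, 362 stayed within 1.5 times. Depth limits Dppa3 most, at 90 to 106 counts per wild-type library.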
